A study of Mus musculus with 10 samples.

Results

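The 10 genes described here serve lipid absorption in the enterocyte, the absorptive cell that lines the small intestine. They are Cd36, Slc27a4, Npc1l1, Fabp1, Fabp2, Mogat2, Dgat1, Dgat2, Abcg5 and Abcg8, and they were chosen by symbol. All 10 were found among the 24062 gene symbols of the deposited tables and all 10 were among the 17632 genes tested. RNA was sequenced from the jejunum of mice at postnatal day 5, with 5 libraries in each of 2 groups, to ask how interleukin-23 (IL-23) made in the skin bears on organs that process nutrients. WT mice were wild type C57BL/6. KSR23 mice, also labelled C57BL/6, carried a cassette for both IL-23 subunits (p19, gene Il23a, and p40, gene Il12b) in the ROSA26 locus behind a floxed STOP signal, and a cre recombinase under the keratin 14 promoter switched it on. That promoter is active in keratinocytes, so the jejunum is a tissue at a distance from the intended source of the cytokine. The study calls the libraries biological replicates, and the labels do not say which animal each came from.

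Dietary fat reaches the jejunum as triglyceride and is split in the lumen to fatty acids and monoacylglycerol, which enter the enterocyte and are bound there by small cytosolic carriers. In the endoplasmic reticulum monoacylglycerol is esterified again, first to diacylglycerol and then to triglyceride, which leaves the cell in chylomicrons. Sterols enter by a transporter of their own, and plant sterols and part of the cholesterol are pumped back to the lumen. The suckling pup lives on milk, a diet rich in fat.

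The libraries held 25.5 to 32.0 M counts in WT and 31.2 to 60.9 M in KSR23 (M, 1e6), and levels are given as CPM, the counts of a gene in each M counts of its library, with totals scaled by trimmed mean of M-values (TMM). The fewest counts for any of the 10 genes in a library was 1326 and the most was 522593, so counting error was small beside the spread between libraries. Il12b held 0 to 5 counts in each WT library and 9 to 40 in each KSR23 library (edgeR adjusted p = 0.00364), while Il23a held 1 to 14 and 8 to 34 (adjusted p = 0.270). Il22, which encodes the cytokine that IL-23 induces, was all but absent from WT, at 0 or 1 count, and reached 137 to 329 counts in KSR23. Replicates 4 and 5 of both groups stood apart from the rest. Each was the highest or lowest of its group in 8.54% to 18.4% of the 9737 genes above 5 CPM, against 45.7% to 75.6% for replicates 1 to 3, where 40% would be the share of an exchangeable library. For none of the 10 genes was replicate 4 or 5 the highest or lowest of its group. Whether these 4 libraries are independent of replicates 1 to 3 was not tested. If they were pools or mixes of the same RNA, the n of 5, the SDs and the p-values over 10 libraries would rest on fewer independent samples. All libraries are labelled as separate samples and were kept, and replicates 1 to 3 alone are also given for the 10 genes and the lists below. There Il12b was not called (edgeR adjusted p = 0.295) and Il22 was (adjusted p = 3.29e-12).

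Promoter sequences are shown for the 3 genes that were called and for the interval that Abcg5 and Abcg8 share, since these genes are set side by side below. They come from RefSeq on build GRCm38.p6 and are written 5′ to 3′ on the gene's strand, up to the base before the annotated start. Capitals mark 4 short motifs searched on both strands, namely TTCNNNGAA (the STAT element), AGGTCA (the nuclear receptor half-site, written TGACCT on the other strand), CAAAG (the HNF4 core, CTTTG on the other strand) and TATAAA (the TATA box, TTTATA on the other strand). The windows were chr5:17835897-17836146 (minus strand) for Cd36, chr6:71199629-71199826 (plus strand) for Fabp1 and chr3:122894822-122895071 (plus strand) for Fabp2. The last 52 bases before the RefSeq start of Fabp1 lie in the first exon of the GENCODE model and were left off. The Cd36 window precedes the RefSeq start, one of several starts of the gene, and lies 52655 bases inside the GENCODE model, whose first base is that of a longer transcript.
Cd36: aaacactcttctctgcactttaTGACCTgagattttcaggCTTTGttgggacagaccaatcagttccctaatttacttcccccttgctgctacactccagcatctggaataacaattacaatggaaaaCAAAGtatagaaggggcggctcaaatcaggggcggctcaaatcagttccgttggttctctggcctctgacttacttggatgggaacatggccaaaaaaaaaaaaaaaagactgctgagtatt
Fabp1: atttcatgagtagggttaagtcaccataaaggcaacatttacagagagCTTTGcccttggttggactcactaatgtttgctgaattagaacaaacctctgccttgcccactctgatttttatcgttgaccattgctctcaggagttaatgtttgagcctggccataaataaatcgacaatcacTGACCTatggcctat
Fabp2: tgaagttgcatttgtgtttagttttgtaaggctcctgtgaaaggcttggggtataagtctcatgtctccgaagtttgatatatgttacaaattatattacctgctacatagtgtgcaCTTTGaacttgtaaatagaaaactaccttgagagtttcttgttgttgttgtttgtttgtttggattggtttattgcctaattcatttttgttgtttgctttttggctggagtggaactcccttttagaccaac

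The promoter table held 7 of the 10 genes, all but Mogat2, Dgat1 and Dgat2. Over the 250 bases before each start, CAAAG lay in 5 of the 7 windows (Cd36, Npc1l1, Fabp1, Fabp2 and Abcg5), against 48.6% of 32851 windows of the same length in the mouse table. AGGTCA lay in 3 of 7 (Cd36, Npc1l1 and Fabp1), against 14.0%. TATAAA lay in 3 of 7 (Fabp1, Abcg5 and Abcg8), against 12.4%, and TTCNNNGAA lay in none of the 7, against 7.02%. The windows of Abcg5 and Abcg8 overlap, and their TATAAA matches are the same bases, which read TATAAA on the strand of Abcg5 only. In Fabp1 the letters AGGTCA occurred at positions -67 to -62 and, in the bases left off, at -9 to -4, and TATAAA occurred at -30 to -25, counted from the RefSeq start. These matches describe letters in a window and do not show that a factor binds there. Fabp1, lower in KSR23, and Cd36, higher in KSR23, both held AGGTCA and CAAAG, and any part of these motifs in the levels was not tested.

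Of the 10 genes, 3 differed between the groups, namely Cd36, which was higher in KSR23, and Fabp1 and Fabp2, which were lower. The other 7 did not pass the test (edgeR likelihood ratio test, adjusted p under 0.05 over all 17632 genes). The share called was 30.0%, against 18.5% of all tested genes, of which 9.73% were called higher and 8.76% lower. With 10 genes, 3 calls lie close to that background. The edgeR quasi-likelihood test kept 2 of the 3 calls, Cd36 and Fabp2, where it called 15.4% of all genes. In replicates 1 to 3 alone neither test called any of the 10, where the likelihood ratio test called 3.36% and the quasi-likelihood test 0.812% of the genes tested. At an unadjusted p under 0.05 the edgeR likelihood ratio test held 2 of the 10 there (Cd36 and Fabp2) and the quasi-likelihood test 1 (Cd36). There was no overlap in CPM between WT and KSR23 for 1 of the 10, Cd36, as for 14.4% of all genes. The median log2 fold change of the 10 genes was -0.14, against 0.03 over all tested genes, with 3 values above 0 and 7 below. In bulk tissue fewer cells of a type and less RNA per cell cannot be told apart, and this holds for every level given here.

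**Figure D1:**
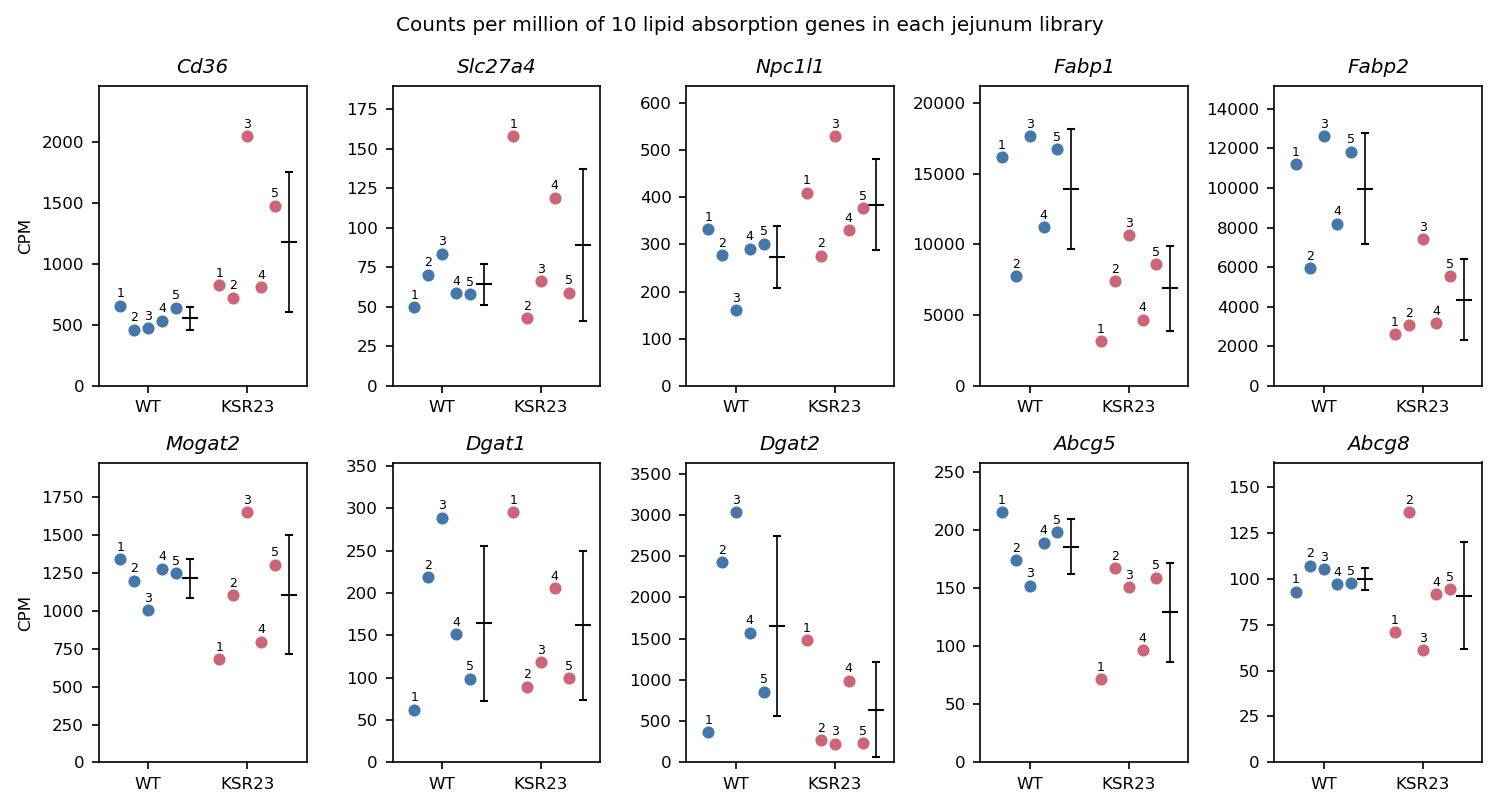
CPM (vertical axis, linear and starting at 0) of the 10 genes in each jejunum library, WT in blue and KSR23 in red, with the replicate number above each point and the mean and SD of 5 libraries as the black mark beside each group. The KSR23 points of Cd36 (725 to 2051 CPM) all sit above the WT points (461 to 658 CPM), and the points of Dgat1 and Dgat2 spread widely within both groups.

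Cd36, a membrane protein that binds long-chain fatty acids and aids their uptake, lies on chromosome 5 (17781690 to 17888801, minus strand, build mm10). It was higher in KSR23 by 1.09 on the log2 scale. The WT libraries held 658, 461, 475, 536 and 641 CPM in replicates 1 to 5, and the KSR23 libraries held 827, 725, 2051, 812 and 1479 CPM. All 5 KSR23 libraries exceeded the highest WT library, and replicates 3 and 5 were well above the other KSR23 libraries. The mean was 554 ± 91.8 CPM (SD, n = 5) in WT and 1179 ± 573 CPM (SD, n = 5) in KSR23. The log2 fold change had an SE of 0.33, a 95% interval of 0.44 to 1.73 and an edgeR adjusted p of 0.00956 (0.0316 by the quasi-likelihood test). In replicates 1 to 3 the log2 fold change was 1.21 with an edgeR adjusted p of 0.303. Scaled to 8 epithelial genes in place of library totals it was 0.81 (adjusted p = 0.256), where the median over all genes stood at -0.31 in place of 0.03, and with a replicate block it was 0.97 (adjusted p = 0.0597).

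Cd36 is also made by endothelial cells, adipocytes and macrophages, so their markers were set beside it. Of 6 endothelial markers 2, Cdh5 and Emcn, were called lower in KSR23 and none was called higher. The log2 fold changes of those not called were 0.51 (Tek), 0.13 (Pecam1), 0.06 (Kdr) and -0.54 (Esam). The summed level of the 6 was 149 to 209 CPM in WT and 124 to 209 CPM in KSR23. Of 6 macrophage markers 1, Cd68, was called lower and none was called higher, with sums of 679 to 799 CPM in WT and 510 to 710 CPM in KSR23. Those not called stood at 0.18 (Mrc1), -0.70 (Emr1, now Adgre1), -0.43 (C1qa), -0.27 (Lyz2) and -0.26 (Csf1r) on the log2 scale. The adipocyte markers Adipoq, Lep, Cfd and Retn stood at 3 or fewer counts in every library, and the remaining one, Plin1, did not exceed 0.199 CPM. Adipoq, Lep, Cfd and Retn had too few counts to be tested, so a call was not possible for them, and Plin1 was tested and not called. The KSR23 library with the most Cd36, replicate 3, also had the highest endothelial and macrophage sums of its group (209 and 710 CPM), and the part of this in the result was not tested.

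Slc27a4 encodes a fatty acid transport protein with acyl-CoA synthetase activity and lies on chromosome 2 (29802634 to 29817522, plus strand). Its level was 49.8, 70.4, 83.7, 58.8 and 57.9 CPM in WT and 158, 42.8, 66.3, 119 and 59.0 CPM in KSR23. KSR23 replicates 1 and 4 lay above every WT library and KSR23 replicate 2 below every one. The log2 fold change of 0.47 (SE 0.37, 95% interval -0.25 to 1.20) did not pass (edgeR adjusted p = 0.415).

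Npc1l1, the sterol transporter of the brush border that takes up cholesterol, lies on chromosome 11 (6211013 to 6230143, minus strand). The WT libraries held 332, 277, 161, 291 and 302 CPM and the KSR23 libraries 410, 276, 530, 330 and 377 CPM. WT replicate 3 was lower than all others, and 3 of the 5 KSR23 libraries exceeded every WT library. Npc1l1 had a log2 fold change of 0.50 (SE 0.28, 95% interval -0.06 to 1.05), which did not pass (edgeR adjusted p = 0.227).

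The cytosolic carriers Fabp1 (the liver type fatty acid binding protein) and Fabp2 (the intestinal type) were both lower in KSR23, by 1.01 and 1.19 on the log2 scale. Fabp1 lies on chromosome 6 (71199827 to 71205023, plus strand) and Fabp2 on chromosome 3 (122895072 to 122899506, plus strand). Fabp1 stood at 16178, 7739, 17670, 11225 and 16733 CPM in WT and at 3172, 7410, 10660, 4674 and 8617 CPM in KSR23. The groups overlapped, since WT replicate 2 was as low as the middle of KSR23, and 3 of the 5 KSR23 libraries lay below every WT library. The Fabp1 log2 fold change was -1.01 (SE 0.36, 95% interval -1.72 to -0.30, edgeR adjusted p = 0.0351), a 2.01-fold higher level in WT. It did not pass the quasi-likelihood test (adjusted p = 0.0822). It also failed to pass with 1 library left out in 7 of 10 cases, namely without WT replicates 1, 3, 4 or 5 or KSR23 replicates 1, 2 or 4 (adjusted p 0.0638 to 0.130). With a replicate block its adjusted p was 0.0534, and in replicates 1 to 3 its log2 fold change was -0.94 (adjusted p = 0.546).

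Fabp2 stood at 11195, 5951, 12630, 8203 and 11844 CPM in WT and at 2610, 3060, 7413, 3186 and 5561 CPM in KSR23. Of the 5 KSR23 libraries 4 lay below every WT library, and KSR23 replicate 3 exceeded WT replicate 2. The log2 fold change of Fabp2 was -1.19 (SE 0.35, 95% interval -1.88 to -0.51, edgeR adjusted p = 0.00743 and 0.0371 by the quasi-likelihood test), a 2.28-fold higher level in WT. With any 1 library left out it stayed called (adjusted p 0.000178 to 0.0439), and in replicates 1 to 3 it was -1.15 (adjusted p = 0.378). WT replicate 2 and KSR23 replicate 1 were the lowest of their group for both carriers.

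Together the 2 carriers took 2.43% ± 0.601 (SD, n = 5) of all counts of a WT library and 1.05% ± 0.303 (SD, n = 5) of a KSR23 library. The other 8 genes together took 0.432% ± 0.089 in WT and 0.367% ± 0.068 in KSR23. Beside this share stands Reg3b, an antimicrobial lectin gene of the epithelium. With Il23a, Il12b and Il22 it summed to 29.3 to 758 CPM in WT and to 45628 to 128548 CPM in KSR23. A share of all counts is set against totals that hold those Reg3b counts, whereas the scaled fold changes above are not.

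Mogat2, Dgat1 and Dgat2 carry out the re-esterification of monoacylglycerol, and none of the 3 was called. Mogat2, the monoacylglycerol acyltransferase of the enterocyte, lies on chromosome 7 (99219084 to 99238619, minus strand). Its level was 1342, 1200, 1005, 1280 and 1249 CPM in WT and 681, 1105, 1650, 798 and 1306 CPM in KSR23. The WT libraries sat close together and the KSR23 libraries lay on both sides of them. For Mogat2 the log2 fold change was -0.13 (SE 0.28, 95% interval -0.69 to 0.42, edgeR adjusted p = 0.807), and its sign turned when KSR23 replicate 1 (0.05) or replicate 4 (0.00) was left out.

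Dgat1 and Dgat2 encode unrelated enzymes of the last step, the making of triglyceride from diacylglycerol. Dgat1 lies on chromosome 15 (76502015 to 76511953, minus strand), and Dgat2 lies on chromosome 7 (99153658 to 99182719, minus strand), 36364 bases from Mogat2. Dgat1 held 62.3, 219, 289, 151 and 98.9 CPM in WT and 295, 89.6, 118, 206 and 99.6 CPM in KSR23. The libraries of either group spanned the other almost wholly, with a highest over lowest ratio of 4.64 in WT and 3.29 in KSR23. Dgat1 had a log2 fold change of -0.02 (SE 0.45, 95% interval -0.91 to 0.87, edgeR adjusted p = 0.983), an interval wide enough to hold a change of either sign.

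Dgat2 held 370, 2429, 3028, 1570 and 856 CPM in WT and 1480, 268, 229, 991 and 234 CPM in KSR23. KSR23 replicates 2, 3 and 5 lay below every WT library, while KSR23 replicates 1 and 4 lay among the WT libraries. The log2 fold change was -1.37 (SE 0.63, 95% interval -2.60 to -0.13), which did not pass (edgeR adjusted p = 0.125, unadjusted p = 0.0328). Leaving out WT replicate 1 (-1.62, adjusted p = 0.0427) or KSR23 replicate 1 (-1.88, adjusted p = 0.0246) brought it past the threshold, as did scaling to epithelial genes (-1.60, adjusted p = 0.0315). In replicates 1 to 3 it was -1.53 (adjusted p = 0.488).

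**Figure D2:**
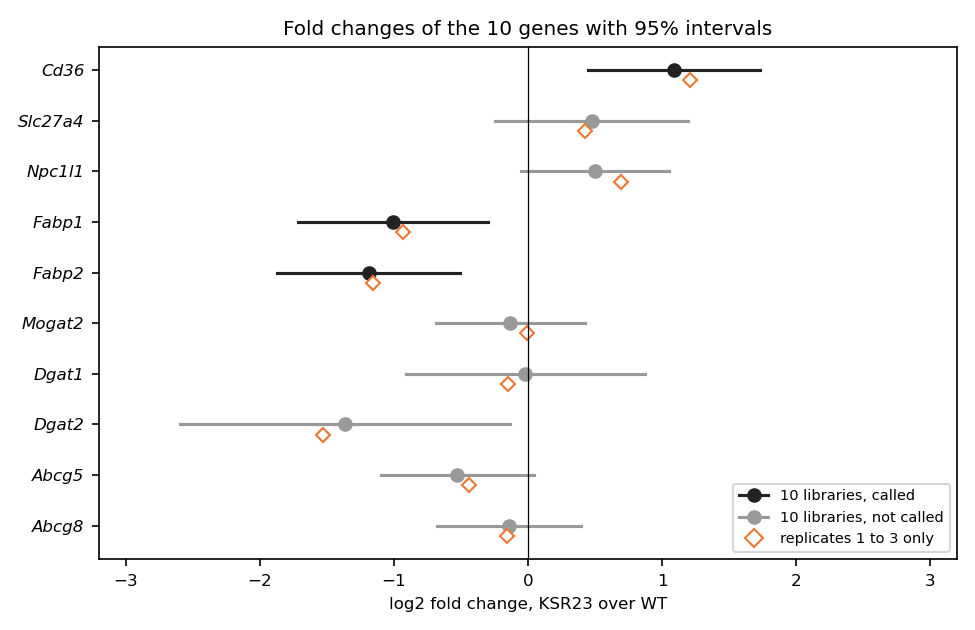
Log2 fold change (KSR23 over WT, horizontal axis) of each gene with its 95% interval from 10 libraries, black where called and grey where not, and open diamonds for the value from replicates 1 to 3. The intervals of Cd36, Fabp1, Fabp2 and Dgat2 lie on 1 side of 0, and the widest, that of Dgat2, runs from -2.60 to -0.13.

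The libraries of each group with the most Dgat2, WT replicates 2 and 3 and KSR23 replicates 1 and 4, also had the most Dgat1. The SD of their log2 ratio was below that of log2 Dgat2 in both groups (0.37 against 1.23 in WT, 0.61 against 1.29 in KSR23), and for KSR23 not far below that of log2 Dgat1 (0.74). The ratio of Dgat2 to Dgat1 counts was 5.94, 11.1, 10.5, 10.4 and 8.66 in WT and 5.02, 2.99, 1.93, 4.81 and 2.35 in KSR23. Each KSR23 library lay below each WT library, although WT replicate 1 (5.94) and KSR23 replicate 1 (5.02) came close. The mean log2 ratio was 3.19 ± 0.37 in WT and 1.67 ± 0.61 in KSR23 (SD, n = 5), a difference of -1.51 (two-sided exact permutation p = 0.00794, the smallest that 5 against 5 allows, adjusted p = 0.0317 over 4 ratios). A ratio within a library is free of the scaling of library totals, and it shows unequal change without saying which of the genes moved. In replicates 1 to 3 the difference was -1.52, again with no overlap. There the exact permutation test of 3 against 3 cannot go below p = 0.1, and its adjusted p was 0.4. With 1 library left out the difference ran from -1.68 to -1.33, and the adjusted p was 0.0635 in each case. There the exact permutation p was 0.0159, the smallest that 4 against 5 allows, and the adjustment over 4 ratios took it above the threshold.

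The other 3 ratios did not pass. Fabp2 to Fabp1 was 0.692, 0.769, 0.715, 0.731 and 0.708 in WT and 0.823, 0.413, 0.695, 0.682 and 0.645 in KSR23. Of the 5 KSR23 libraries 1 lay above and 3 below every WT library, and the difference of mean log2 ratios was -0.18 (exact permutation p = 0.365, adjusted p = 0.365). Cd36 to Slc27a4, the uptake proteins for fatty acids, was 5.67 to 13.2 in WT and 5.23 to 31.0 in KSR23. It differed by 0.65 on the log2 scale (exact permutation p = 0.270, adjusted p = 0.360), so a higher Cd36 relative to Slc27a4 was not shown.

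**Figure D3:**
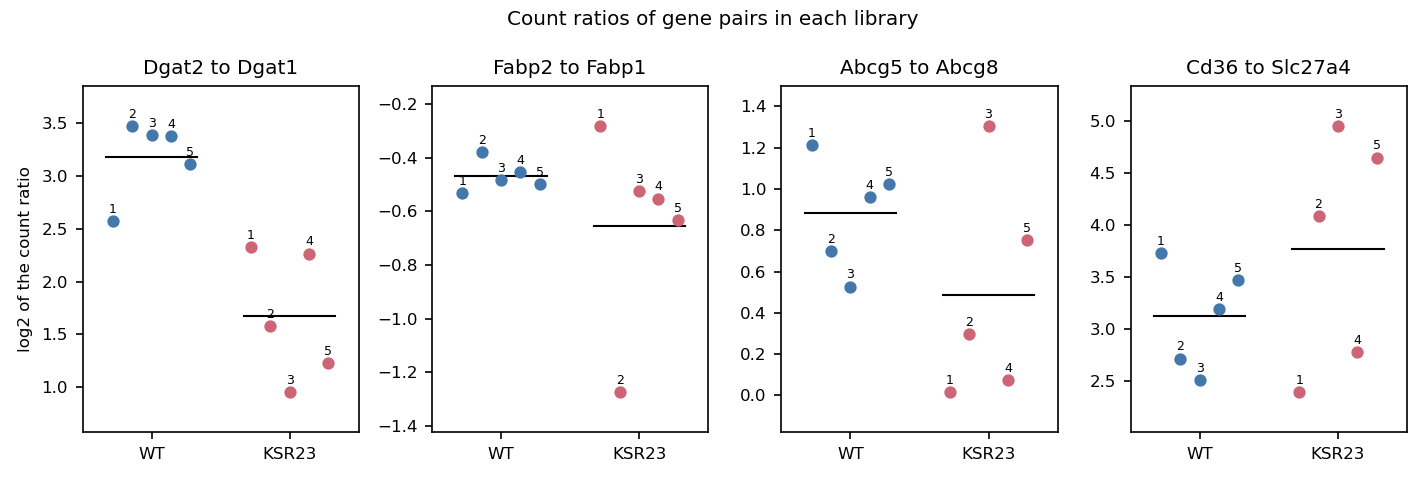
Log2 ratio of the counts of 4 gene pairs in each library (vertical axes differ between panels and do not start at 0), WT in blue and KSR23 in red, with the replicate number above each point and the group mean as a line. For Dgat2 to Dgat1 the KSR23 mean of 1.67 lies below the WT mean of 3.19 with no overlap, and the other 3 pairs overlap.

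Abcg5 and Abcg8 encode the subunits of a pump that returns sterols to the lumen, and neither was called. They lie head to head on chromosome 17, Abcg5 on the minus strand (84658234 to 84683011) and Abcg8 on the plus strand (84676302 to 84700333). The 109 bases between their RefSeq starts (chr17:84683012-84683120, build GRCm38.p6, plus strand) are shown because both genes are read outward from them, with the TATAAA match in capitals.
Abcg5 to Abcg8: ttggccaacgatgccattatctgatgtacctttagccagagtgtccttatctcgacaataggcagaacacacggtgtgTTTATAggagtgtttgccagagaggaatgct

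Abcg5 held 215, 174, 152, 189 and 198 CPM in WT and 71.5, 167, 151, 96.5 and 159 CPM in KSR23. KSR23 replicates 1 and 4 were far below WT, and replicate 3 lay just under the lowest WT library. Abcg5 had a log2 fold change of -0.53 (SE 0.29, 95% interval -1.10 to 0.04, edgeR adjusted p = 0.211). Abcg8 held 93.0, 107, 105, 97.1 and 97.5 CPM in WT and 70.8, 136, 61.1, 91.7 and 94.3 CPM in KSR23. The WT libraries of Abcg8 were the tightest of all 10 genes, and its log2 fold change was -0.14 (SE 0.27, 95% interval -0.68 to 0.40, edgeR adjusted p = 0.786). The ratio of Abcg5 to Abcg8 was 1.44 to 2.32 in WT and 1.01 to 2.47 in KSR23, a log2 difference of -0.40 (exact permutation p = 0.183, adjusted p = 0.360). The annotated models of the pair overlap on opposite strands and whether counting used the strand is not given in the sources used here, so reads in the overlap cannot be assigned to one of them with certainty. The spans of Fabp2 and Mogat2 also overlap an annotated antisense gene each, 4933405D12Rik and Gm45012, and the strand is as uncertain there. Of the 75-base stretches of Abcg5 0.325% also occurred in Abcg8, and none of those of the other 8 genes, Fabp2 and Mogat2 included, occurred in an annotated transcript of another gene on either strand.

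Per kilobase of exon the carriers led in both groups, at 25151 ± 7701 CPM per kilobase for Fabp1 and 10326 ± 2902 for Fabp2 in WT, and 12490 ± 5440 and 4524 ± 2130 in KSR23 (SD, n = 5). Next in WT came Mogat2 at 662 ± 70.0, Dgat2 at 535 ± 355 and Cd36 at 154 ± 25.6 CPM per kilobase. Mogat2 exceeded Dgat2 in 3 of the 5 WT libraries, so the order of these neighbours did not hold from library to library. Abcg5, Npc1l1, Dgat1, Abcg8 and Slc27a4 followed in WT at 68.5, 61.0, 53.7, 26.7 and 14.5 CPM per kilobase. In KSR23 Cd36, at 328 ± 160 CPM per kilobase, stood above Dgat2, at 208 ± 185, in 3 of 5 libraries, whereas in WT Dgat2 stood above Cd36 in 4 of 5. The lowest level in both groups was that of Slc27a4, below Abcg8 in 5 of 5 WT and in 3 of 5 KSR23 libraries.

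The spread within a group differed among the 10 genes. The pooled SD of log2 CPM within groups was 1.26 for Dgat2 and 0.81 for Dgat1, at the percentiles 94.1 and 85.6 of the 3064 genes above 50 CPM, whose median was 0.40. For Abcg8 it was 0.32, at the percentile 20.2. Levels of Dgat2 ran 8.18-fold from lowest to highest in WT and 6.47-fold in KSR23. The highest libraries of each group were WT replicates 2 to 4 and KSR23 replicates 1 and 4. A pair of other genes, chosen after their values were seen, had a similar course. Slc27a2, a further fatty acid transport protein, held 14.7, 173, 212, 112 and 57.8 CPM in WT and 109, 19.5, 14.0, 67.8 and 18.4 CPM in KSR23, and Acsl3, an acyl-CoA synthetase, held 36.2, 79.0, 185, 58.7 and 63.8 CPM in WT and 117, 6.64, 16.7, 81.4 and 12.9 CPM in KSR23. Neither was called. The summed level of 10 enterocyte markers was 2597, 6947, 7629, 5057 and 3509 CPM in WT and 8088, 8262, 3515, 7447 and 5416 CPM in KSR23. WT replicate 1 was the lowest WT library in the sum and in Dgat2, and KSR23 replicate 2 had the highest sum and 268 CPM of Dgat2. Fgf15, a gene of the distal small intestine also chosen after its values were seen, held 1.27, 7.67, 6.38, 5.47 and 2.70 CPM in WT and 4.35, 0.0322, 0, 2.28 and 0 CPM in KSR23. As with Dgat2, WT replicates 2 to 4 were its highest WT libraries and KSR23 replicates 1 and 4 its highest KSR23 libraries. The summed level of the 4 distal genes ran the other way. It was 705, 398, 473, 526 and 688 CPM in WT and 436, 499, 841, 451 and 678 CPM in KSR23. Onecut2, a gene of the proximal part chosen likewise, was lowest in KSR23 replicates 1 and 4 of that group, at 2.20 and 16.3 CPM. In WT it was highest in replicates 2 to 4, at 35.0, 26.5 and 31.2 CPM, against 24.6 and 25.4 CPM in replicates 1 and 5. The summed level of the 4 proximal genes was 890, 1465, 916, 1194 and 915 CPM in WT and 2103, 1288, 1250, 1795 and 1210 CPM in KSR23. The part of the enterocyte sum, of the region sums and of either region gene in the levels of Dgat2 was not tested.

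Other genes of lipid absorption were read from 6 lists, and of 63 tested genes 21 were called (33.3%, against 18.5% of all tested genes), 14 higher and 7 lower. By the quasi-likelihood test 17 were called (15.4% of all genes). In replicates 1 to 3 the likelihood ratio test called 2, Acsl4 and Soat1 (3.36% of all genes), and the quasi-likelihood test called 0 (0.812% of all genes), with 16 at an unadjusted p under 0.05 by either test. Their median log2 fold change was 0.11, against 0.03 over all genes. Scaled to epithelial genes 11 were called, 3 higher and 8 lower, so the balance of directions rested on the scaling.

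Of 13 other genes of glycerolipid synthesis, 5 were higher, 1 was lower and 7 did not pass, with a median log2 fold change of 0.82. Agpat9 (now Gpat3) and Agpat6 (now Gpat4), which acylate glycerol phosphate, stood at 56.4 ± 17.3 and 32.1 ± 6.00 CPM in WT and 125 ± 39.6 and 67.5 ± 22.5 CPM in KSR23 (SD, n = 5). Their log2 fold changes were 1.15 (SE 0.33, edgeR adjusted p = 0.00511) and 1.07 (SE 0.30, edgeR adjusted p = 0.00459). Agpat4 and Agpat1, acyltransferases of the following step, were higher by 1.13 (edgeR adjusted p = 0.00167) and 1.03 (adjusted p = 0.00888). These 4 lost their call when scaled to epithelial genes (adjusted p 0.0640 to 0.224) and in replicates 1 to 3 (adjusted p 0.211 to 0.420), and kept their sign. The 1 lower gene was Agpat3, of the same acyltransferase family and the most abundant of the list in WT, which the naming rule did not cover. It fell from 219 ± 22.0 to 117 ± 7.15 CPM (log2 fold change -0.91, edgeR adjusted p = 0.000801), with a call that held when scaled to epithelial genes (adjusted p = 0.00363) and not in replicates 1 to 3 (adjusted p = 0.364). The glycerol phosphate route runs beside the monoacylglycerol route of Mogat2.

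Of 8 other lipid binding proteins, 3 were called lower and none was called higher, with a median log2 fold change of -0.67. Fabp7, the brain type carrier, fell from 15.1 ± 2.94 to 4.55 ± 1.71 CPM (log2 fold change -1.73, SE 0.32, edgeR adjusted p = 6.35e-06). Fabp4, the carrier of adipocytes and endothelium, fell from 123 ± 33.4 to 49.8 ± 15.9 CPM (-1.30, SE 0.32, edgeR adjusted p = 0.000841). Of the endothelial markers given above Cdh5 and Emcn were lower, while Tek (0.51), Pecam1 (0.13), Kdr (0.06) and Esam (-0.54) were not called. The part of endothelial cells in the level of Fabp4 was not tested. Fabp3, at 0.859 ± 0.358 CPM in WT, had a log2 fold change of -1.35 (edgeR adjusted p = 0.0217) at 4 to 47 counts per library. It lost its call by the quasi-likelihood test (adjusted p = 0.0558) and with a replicate block (edgeR adjusted p = 0.0544). The call was also lost without WT replicates 1, 2 or 5 or KSR23 replicates 2 or 5 (adjusted p 0.0523 to 0.103). The edgeR adjusted p in replicates 1 to 3 was 0.129 for Fabp7, 0.270 for Fabp4 and 0.238 for Fabp3. The groups overlapped in the 5 genes of the list that were not called and not in these 3, where 14.4% of all genes showed no overlap.

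Of 8 sterol handling genes, 3 were called higher and none was called lower. Soat1, which esterifies cholesterol, rose from 47.9 ± 1.98 to 137 ± 10.2 CPM (log2 fold change 1.52, SE 0.23, edgeR adjusted p = 2.95e-09), and its call held when scaled to epithelial genes (1.15, adjusted p = 0.00991). In replicates 1 to 3 Soat1 passed the likelihood ratio test (edgeR adjusted p = 0.0296) and not the quasi-likelihood test (adjusted p = 0.108). Abca1, which exports cholesterol to lipoproteins, was higher by 1.08 (edgeR adjusted p = 0.00739), and Lima1, a partner of Npc1l1 in its return to the membrane, by 1.01 (adjusted p = 0.00205). Both lost their call when scaled to epithelial genes (edgeR adjusted p = 0.227 and 0.291) and in replicates 1 to 3 (adjusted p = 0.126 and 0.215). Of 10 acyl-CoA synthetases and other transport proteins, Acsl4 (1.40, edgeR adjusted p = 0.000845) and Slc27a5 (1.92, adjusted p = 0.0187) were higher and Acsl6 (-1.47, adjusted p = 0.0407) was lower. Acsl4 in replicates 1 to 3 lay just under the threshold by the likelihood ratio test (edgeR adjusted p = 0.0494) and above it by the quasi-likelihood test (adjusted p = 0.157), and it lost its call when scaled to epithelial genes (adjusted p = 0.0682). Slc27a5 and Acsl6 lost theirs by the quasi-likelihood test (adjusted p = 0.0550 and 0.0834) and in replicates 1 to 3 (adjusted p = 0.460 and 0.683). Slc27a5 also lost it when scaled to epithelial genes (adjusted p = 0.135) and without WT replicates 2, 3 or 5 or KSR23 replicate 5 (adjusted p 0.0501 to 0.0688), and Acsl6 with a replicate block (adjusted p = 0.0721) and without WT replicates 1, 4 or 5 or any 1 KSR23 replicate (adjusted p 0.0567 to 0.201). All 3 were minor, at 9.79, 1.49 and 0.721 CPM in the higher group, while Acsl5, the most abundant of the list, stood at 4630 ± 894 CPM in WT with a log2 fold change of -0.09 (adjusted p = 0.888).

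Of 12 tested genes of the lipid droplet and lipolysis, Cidec, which promotes droplet growth, fell from 589 ± 13.5 to 333 ± 72.7 CPM (log2 fold change -0.82, edgeR adjusted p = 0.00586), and Mgll, the monoacylglycerol lipase, had a log2 fold change of -1.06 (adjusted p = 0.0370). Mgll lost its call by the quasi-likelihood test (edgeR adjusted p = 0.0596), with a replicate block (0.167) and without WT replicates 2, 3 or 4 or KSR23 replicates 2, 3, 4 or 5 (adjusted p 0.0670 to 0.141). Neither was called in replicates 1 to 3 (adjusted p = 0.496 and 0.463). The other 10 did not pass. Of 12 transcription factors of lipid metabolism and the enterocyte, 4 were called higher and none was called lower. Hnf4a stood at 163 ± 42.9 CPM in WT and 343 ± 82.4 CPM in KSR23 (1.08, edgeR adjusted p = 0.00281) and Hnf4g was higher by 1.31 (adjusted p = 0.00323). Fabp1 and Fabp2 are commonly listed among their targets, and any part of these factors in the levels of the 2 carriers was not tested. Srebf2 and Ppard were higher by 1.81 (adjusted p = 0.00901) and 1.67 (adjusted p = 0.000153), the latter at 0.739 CPM in WT. Scaled to epithelial genes Hnf4a (0.72, edgeR adjusted p = 0.271) and Hnf4g (0.99, adjusted p = 0.159) lost their calls and Srebf2 and Ppard did not. None of the 4 was called in replicates 1 to 3 (adjusted p 0.0963 to 0.347).

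**Figure D4:**
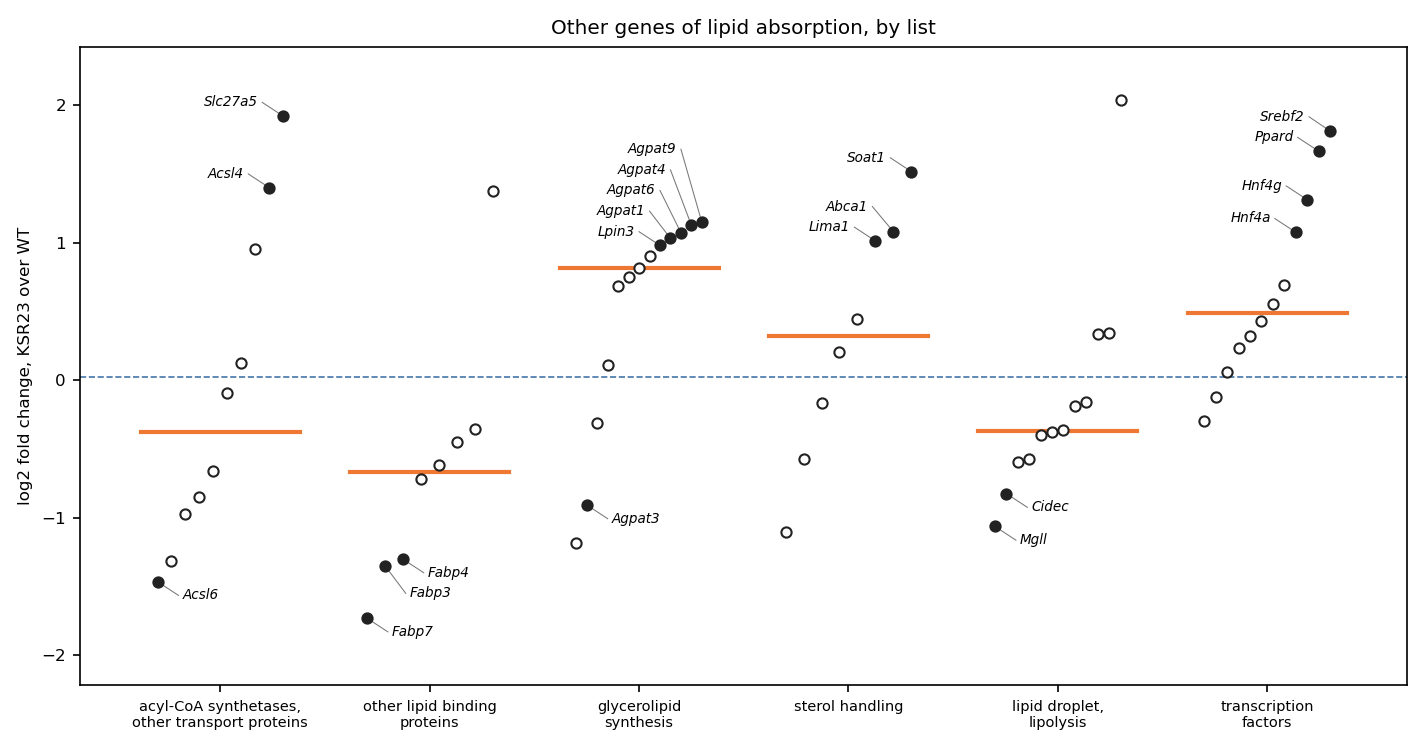
Log2 fold change (KSR23 over WT, vertical axis) of each tested gene in 6 lists, filled and named where called, with the list median as an orange bar and the median of all tested genes (0.03) as a dashed line. The medians of glycerolipid synthesis (0.82) and of the other lipid binding proteins (-0.67) lie on opposite sides of 0.

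The tissue label was set against cell markers. All 10 epithelial and enterocyte markers were tested and their sum was 2597 CPM or more in every library. Of these markers 1, Cdh1, was called, higher in KSR23, and 9 were not. Of 5 smooth muscle markers 1, Acta2, was lower, with sums of 1297 to 2662 CPM in WT and 1249 to 1651 CPM in KSR23. All 4 tested pancreatic acinar markers were lower, with sums of 98.8 to 207 CPM in WT and 5.87 to 15.6 CPM in KSR23. Of 5 hepatocyte markers, which the fetal and neonatal gut shares in part, Alb was lower and Fgb higher. Of 4 genes of the proximal small intestine Cybrd1 was lower, and of 4 of the distal part Slc10a2 was higher, at 0.560 CPM in KSR23. The other 6 were not called, and their directions were mixed. Distal Fgf15, which encodes a hormone that bile acids induce, had a log2 fold change of -1.81 (edgeR adjusted p = 0.349), and the values of proximal Slc40a1, Gata4 and Onecut2 were 0.56, 0.35 and -0.30 (adjusted p = 0.155, 0.458 and 0.759). Onecut2 set KSR23 replicate 1 apart, at 2.20 CPM against 16.3 to 39.2 CPM in the other KSR23 libraries and 24.6 to 35.0 CPM in WT. Of the markers called here and beside Cd36, Cybrd1 and 3 of the acinar genes were called in replicates 1 to 3. By the quasi-likelihood test Cdh1, Acta2, Alb, Slc10a2 and the acinar genes Cpa1 and Cel were not called (edgeR adjusted p 0.0536 to 0.0938). The part of these markers in the levels of the 10 genes was not tested.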

How the data were processed

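Jejunum RNA for 5 WT and 5 KSR23 libraries was primed with oligo-dT, amplified by PCR from picogram amounts, cut and tagged with a transposase and read as single ends of 75 bases, without molecular identifiers, so precision from counts covers counting error only. The deposited values were raw counts per gene. Per the submitters' processing notes and the paper's methods, the authors mapped reads to mm10 with TopHat2 2.1.0 and counted them with HTSeq 0.6.1p1. Rows of unassigned reads were not used.

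A gene entered the test if any library gave it at least 5 counts (17632 genes). Counts were scaled with TMM factors in edgeR 4.0.16 (R 4.3.3), and the model held a term for the group alone. WT and KSR23 were set against each other with the likelihood ratio test, as in the study, and p-values were adjusted over all tested genes by the Benjamini-Hochberg method. A gene is called where its adjusted p is under 0.05. Intervals are 95% intervals from the model's SE, and p-values are two-sided. Log2 CPM used a prior count of 2. A total of 4 ratios of gene pairs were compared by two-sided exact permutation over all 252 assignments of group labels (scipy 1.17.1). The alternatives comprised DESeq2 1.42.0, the quasi-likelihood test, other scalings and filters, a replicate block, 1 surrogate variable (sva 3.50.0), leaving out each library, and replicates 1 to 3. The quasi-likelihood test on replicates 1 to 3 was added after seeing the data. The scripts were tested on simulated data. Gene positions and exon lengths are from GENCODE M21 (mm10). Every member was named, with at most 4 called genes of the largest fold change from each other list. The members and lists were chosen with earlier results of these data known.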

Additional observations from a re-analysis of the deposited data

Results flagged for a closer look

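In WT replicate 3 the log2 CPM of Npc1l1 was 7.33, and the nearest of the other WT libraries stood at 8.11. This gap was 0.749 of the whole range of the group, above the critical share of 0.71 for 5 libraries. Of 28 groups of 5 libraries looked at (10 genes and 4 ratios in WT and KSR23), no other library passed it, where chance gives about 1.4. Without that library the log2 fold change of Npc1l1 was 0.36 (adjusted p = 0.428), still not called.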

How the results depend on the processing

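Cd36, Fabp1 and Fabp2 kept their direction under all 21 alternatives, and Slc27a4, Npc1l1, Dgat2, Abcg5 and Abcg8 did too. Fabp1 lost its call under 11 of the 21, Cd36 under 4 and Fabp2 under 2. The count of called genes among the 10 went from 3 to 1 with a replicate block, to 0 in replicates 1 to 3 by either edgeR test, and to 5 with 1 surrogate variable, which added Dgat2 (-1.12, adjusted p = 0.000908) and Abcg5 (-0.62, adjusted p = 0.00814). With 1 library left out it was 2 or 3. Over all genes the count went from 3261 to 579 (likelihood ratio test) and 140 (quasi-likelihood test) in replicates 1 to 3, to 6591 with 1 surrogate variable, and to 2370 to 3802 with 1 library left out. Scaling to epithelial genes called 661 higher and 1813 lower, in place of 1716 and 1545. The pathway genes called went from 21 to 11 when scaled to epithelial genes, to 2 and 0 in replicates 1 to 3 by the likelihood ratio and quasi-likelihood tests, to 40 with 1 surrogate variable, and to 18 to 22 with 1 library left out. The causes were not tested, but replicates 1 to 3 leave fewer samples.

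The log2 fold change of Mogat2 ran from -0.32 to 0.0479 with 1 library left out, and turned sign without KSR23 replicates 1 and 4. That of Dgat1 ran from -0.30 to 0.29 with 1 library left out, and was 0.00998 with totals without TMM and 0.23 with 1 surrogate variable. The Dgat2 to Dgat1 difference of -1.51 was -1.68 to -1.33 with 1 library left out (adjusted p = 0.0635 each, where the raw exact p of 0.0159 is the smallest that 4 against 5 allows), -1.52 in replicates 1 to 3 (adjusted p = 0.4) and -1.80 as a difference of medians (adjusted exact permutation p = 0.190). With a replicate block it was -1.51 (adjusted exact sign-flip p = 0.25, where the raw p cannot go below 0.0625). Same-numbered libraries deviated together for numbers 2, 4 and 5 (correlations of 0.406, 0.359 and 0.486) and against each other for 1 and 3 (-0.74 and -0.689), so the numbers were not taken to pair the samples. The block moved the calls over the 10 genes from 3 to 1 (Fabp2) and those over all genes to 2202, and of the WT libraries only replicate 4 correlated best with its own number. Each of the 10 genes had 1326 counts or more in each library.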
